A study of Onthophagus taurus with 15 samples.

Results

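In pupae of the dung beetle Onthophagus taurus, 32 clones of the array were raised to a similar height in head horn, thoracic horn and legs, each appendage being set against dorsal abdominal epithelium. The 32 were chosen by their own measured ratios, out of 3182 clones with a value on all 15 arrays and 3840 clones in all. In each appendage, the mean of the arrays lettered A, C and E was averaged with the mean of arrays B and D. A clone was taken when all 3 appendage means were 1 or more on the log2 scale (2-fold) and the highest lay less than 0.8 (1.74-fold) above the lowest. Of the 85 clones that met the level limit, 53 had a range of 0.8 or more.

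Beetle horns are outgrowths of the body wall with no joints or muscles of their own, whereas legs are ancient jointed limbs. Horns form as folded epidermis that grows before the pupal moult, and work in Onthophagus has shown that limb patterning genes such as Distal-less are also used in them. In this species the thoracic horn of the pupa is resorbed before adulthood, while large males keep their head horns. A clone raised alike in horns and legs therefore has the same relation to abdominal epithelium in outgrowths of very different form. The clones carry no gene names: 0 of 3840 identifiers matched the 16956 genes of the RefSeq table for this species, so no function can be given, the tissue labels could not be checked against marker genes, and several clones may come from 1 transcript.

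Each of the 15 arrays carried appendage RNA in one dye and abdominal RNA in the other, and every appendage had 5 arrays, lettered A to E. All animals were laboratory-reared large males taken within 24 h of pupation, and each RNA sample pooled 4 pupae, with both samples of an array from the same animals. The appendage was labelled with Cy5 on letters B and D and with Cy3 on letters A, C and E. Whether same-letter arrays of different appendages share animals is not stated.

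Every value is a log ratio that the authors had normalized, read here as log2. A positive value likely means higher in the appendage, because titles and design name the appendage first. Arrays of opposite dye layout correlated at 0.25 to 0.50 within an appendage and those of equal layout at 0.60 to 0.72, so the signs were read as having been aligned across dye layouts by the authors. With letters B and D turned instead, the rule found 4 clones and none of the 32. With every sign turned, the 32 clones would be lowered alike. What raises a ratio in all 3 appendages cannot be told apart from low expression in abdominal epithelium, since abdomen is on every array. Fewer expressing cells and less RNA per cell cannot be told apart either. An array held values for 3511 to 3808 clones, fewest on letter D, and array medians over all clones lay between -0.07 and 0.15.

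The mean ratio of the 32 clones ran from 1.09 for OtL019-F12 (2.13-fold) to 3.74 for OtL009-F10 (13.4-fold), with a median of 1.76. The median over all 3182 clones was 0.06. By appendage, the median of the 32 clones was 2.03 in the head horn, 1.71 in the thoracic horn and 1.57 in the legs. Head horn was the highest appendage in 23 of the 32 clones, legs in 6 and thoracic horn in 3. The full order of head horn, then thoracic horn, then legs held in 16 clones. It was marked in a group of 12 closely alike clones described below, with medians of 2.02, 1.65 and 1.39 in that order. In the other 20 clones the medians were 2.09 in the head horn, 1.75 in the thoracic horn and 1.81 in the legs. These levels and orders are part of what chose the clones and are given as a description.

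**Figure D1:**
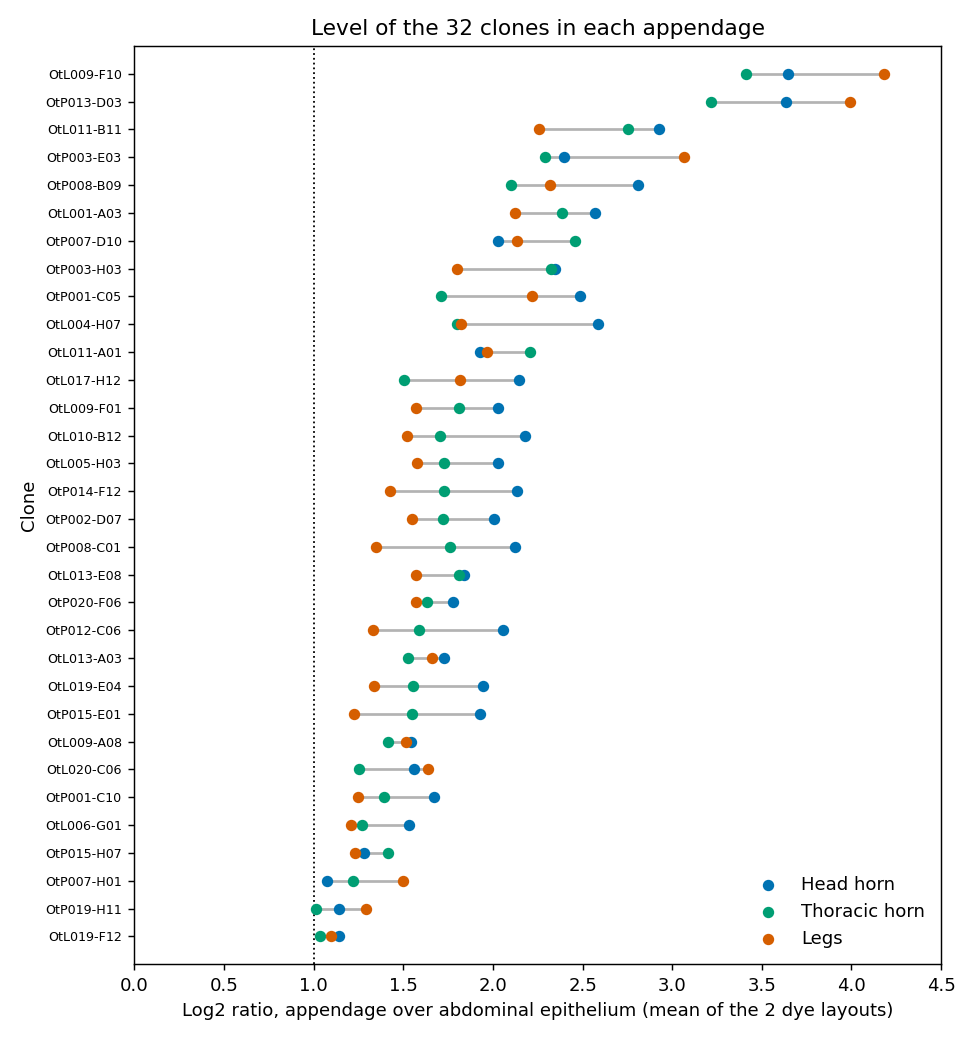
Mean log2 ratio of each of the 32 clones in head horn, thoracic horn and legs, each against abdominal epithelium, as the average of the means of the 2 dye layouts. The grey bar spans the 3 appendages and the dotted line marks the level limit of 1. OtL009-F10 and OtP013-D03 stand apart above 3, and head horn is the highest point in 23 clones.

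OtL009-F10 had the highest mean ratio. Its values on letters A to E were 3.10, 4.25, 4.58, 3.43 and 2.66 in head horn. They were 2.80, 4.41, 3.97, 3.31 and 2.11 in thoracic horn, and 3.08, 4.73, 4.71, 4.31 and 3.72 in legs. Letters B and C were the 2 highest in each appendage, and the 3 appendages overlapped widely. The means over arrays were 3.60 ± 0.80 in the head horn, 3.32 ± 0.92 in the thoracic horn and 4.11 ± 0.71 in the legs (SD, n = 5 each). In every letter the thoracic horn value was below the leg value, with differences (thoracic horn minus legs) from -1.61 to -0.28.

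OtP013-D03 came second, at a mean ratio of 3.61 (12.2-fold). In head horn it stood at 2.16, 5.12, 4.38, 3.75 and 1.98 on letters A to E. In thoracic horn the values were 2.32, 4.28, 3.71, 3.10 and 2.22, and in legs 2.97, 4.54, 4.51, 4.16 and 3.42. Its letters kept nearly the same order as those of OtL009-F10, with B highest in all 3 appendages and A and E lowest. The head horn values alone spanned more than 3 log2 units, whereas the 3 appendage means lay within 0.77.

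The other 8 of the 10 highest clones had mean ratios from 2.07 to 2.65. They were OtL011-B11 (2.65), OtP003-E03 (2.58), OtP008-B09 (2.41), OtL001-A03 (2.36), OtP007-D10 (2.21), OtP003-H03 (2.16), OtP001-C05 (2.14) and OtL004-H07 (2.07). The remaining 22 clones lay between 1.09 and 2.03. OtP003-E03 showed 2.48, 1.89, 3.81, 2.22 and 1.93 on letters A to E in head horn. Its thoracic horn values were 2.19, 2.21, 3.40, 1.96 and 1.90, and its leg values 2.86, 2.93, 4.10, 2.84 and 2.78. Letter C was highest in all 3 appendages, and every leg value lay above every head horn value other than that of C.

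At the other end stood clones whose values hardly varied. OtL019-F12 gave 1.04, 1.09, 1.20, 1.20 and 1.17 in head horn on letters A to E. The thoracic horn values were 0.97, 1.03, 1.22, 0.77 and 1.31, and the leg values 0.76, 0.95, 1.39, 1.21 and 1.18. It had the smallest range between appendages of all 32 clones, 0.11, and the smallest SD within appendage and dye layout, 0.20. OtP019-H11 and OtP015-H07 followed with SDs of 0.25 and 0.27, and their mean ratios were 1.15 and 1.31. The median of this SD was 0.71 over the 32 clones and 0.32 over all 3182 clones.

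OtL009-A08 had the next smallest range, at a mean ratio of 1.49. It stood at 1.52, 1.29, 1.80, 1.68 and 1.48 in head horn, at 1.18, 1.39, 2.06, 1.30 and 1.22 in thoracic horn and at 1.31, 1.47, 1.82, 1.54 and 1.44 in legs. All 15 values lay above 1, as in 7 other clones of the 32, and its appendage means lay within 0.13. After it came OtP015-H07 (0.18), OtL013-A03 (0.20) and OtP020-F06 (0.21). The 5 smallest ranges thus belonged to clones with mean ratios from 1.09 to 1.66, below the median of 1.76 of the 32 clones.

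Near the limits of the rule the choice was narrow. Just inside the range limit were OtP001-C05 (range 0.775), OtP003-E03 (0.776) and OtL004-H07 (0.788). Just outside it were OtL015-A11 (0.822), OtL011-G11 (0.838) and OtP003-F12 (0.868). The lowest appendage mean just inside the level limit was 1.01 for OtP019-H11, 1.03 for OtL019-F12 and 1.07 for OtP007-H01. Just outside it was 0.988 for OtL019-D08, 0.977 for OtL020-H04 and 0.970 for OtL009-F07.

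The word "even" describes means, and its precision depends on how the letters are treated. A linear model was fitted to every clone with limma, with a coefficient for each appendage and 1 term for the dye layout, over 3777 clones with enough values. The standard error of a difference between appendages ran from 0.14 to 0.62 among the 32 clones, with a median of 0.39. The 95% intervals of all 3 differences lay inside 0.8 in either direction in 5 of the 32 clones, which were OtL013-E08, OtL009-A08, OtP015-H07, OtP019-H11 and OtL019-F12. With the letter as a fixed replicate block, which compares arrays of the same letter, the median standard error was 0.20 and this held in 10 clones, adding OtL001-A03, OtL005-H03, OtP020-F06, OtL013-A03 and OtP001-C10. With the letter as a random replicate block it held in 6. In the other 22 clones, at least 1 difference of 0.8 or more lay inside its interval even with the fixed replicate block.

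Calls between appendages are given as a description, because the range limit used these contrasts. Head horn and legs differed in 0 of the 32 clones (limma, adjusted p under 0.05, 0 at an unadjusted p under 0.05), where 6.49% of all clones tested were called. It was 0 for thoracic horn against legs (1 at an unadjusted p under 0.05), with 11% of all clones called. Between the horns it was also 0 (3 at an unadjusted p under 0.05), with 0.874% of all clones called. Against abdomen, 32 of 32 were called in each appendage, where 37.1% of all clones were called in the head horn, 34.2% in the thoracic horn and 39.9% in the legs. Those contrasts too chose the clones.

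Comparing arrays of the same letter gave a finer view. With the letter as a fixed replicate block, 9 of the 32 clones differed between head horn and legs (21.0% of all clones), and with the letter as a random replicate block 0 did (19.5%). Head horn was the higher in 8 of these 9, by 0.44 to 0.75, namely OtL011-B11, OtL001-A03, OtL004-H07, OtL010-B12, OtP014-F12, OtP008-C01, OtP012-C06 and OtL019-E04. OtL004-H07, for instance, was higher in head horn in 5 of 5 letters, by 0.75 ± 0.23 (fit ± SE). OtL001-A03, OtL010-B12 and OtL019-E04 were also higher in 5 of 5 letters. OtL011-B11, OtP014-F12, OtP008-C01 and OtP012-C06 were higher in 4 of 5. OtP003-E03 was the exception in direction among the 9, lower in head horn than in legs in 5 of 5 letters, at -0.64 ± 0.12. With the fixed replicate block 3 clones differed between thoracic horn and legs (25.5% of all clones), OtL009-F10, OtP013-D03 and OtP003-E03, each higher in legs in 5 of 5 letters. With the random replicate block only OtP003-E03 remained among these 3 (25.0% of all clones), at -0.77 in thoracic horn minus legs and with same-letter differences from -0.88 to -0.67. The horns differed in 0 clones with either block (2.97% and 2.62% of all clones, limma, 3 at an unadjusted p under 0.05 without a block). The rule admitted no difference of 0.8 or more, so these calls are a description too.

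The rule averaged over the letters, and within a clone these differed widely. In 12 clones letter B stood 2 or more above letter C, taking means over the 3 appendages, a grouping made after the values had been seen. They were OtL011-B11, OtL009-F01, OtL005-H03, OtP014-F12, OtP002-D07, OtP008-C01, OtP012-C06, OtL013-A03, OtL019-E04, OtP015-E01, OtP001-C10 and OtL006-G01. They were 37.5% of the 32, against 57 of all 3182 clones (1.79%). Among the 53 clones raised in all appendages but over a wider range there were 3. In the 101 clones lowered evenly by the mirrored rule, where the matching pattern is letter B 2 or more below letter C, there were 0. Over all clones there were 6 (0.189%). With B 2 or more above C, as in the 12, there were 3 of these 101 (2.97%). Letter B took part in the choice of the 32 clones. Without letter B the rule kept 3 of the 12 and 13 of the other 20. The share of 37.5% therefore depends on the choice and is a description.

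**Figure D2:**
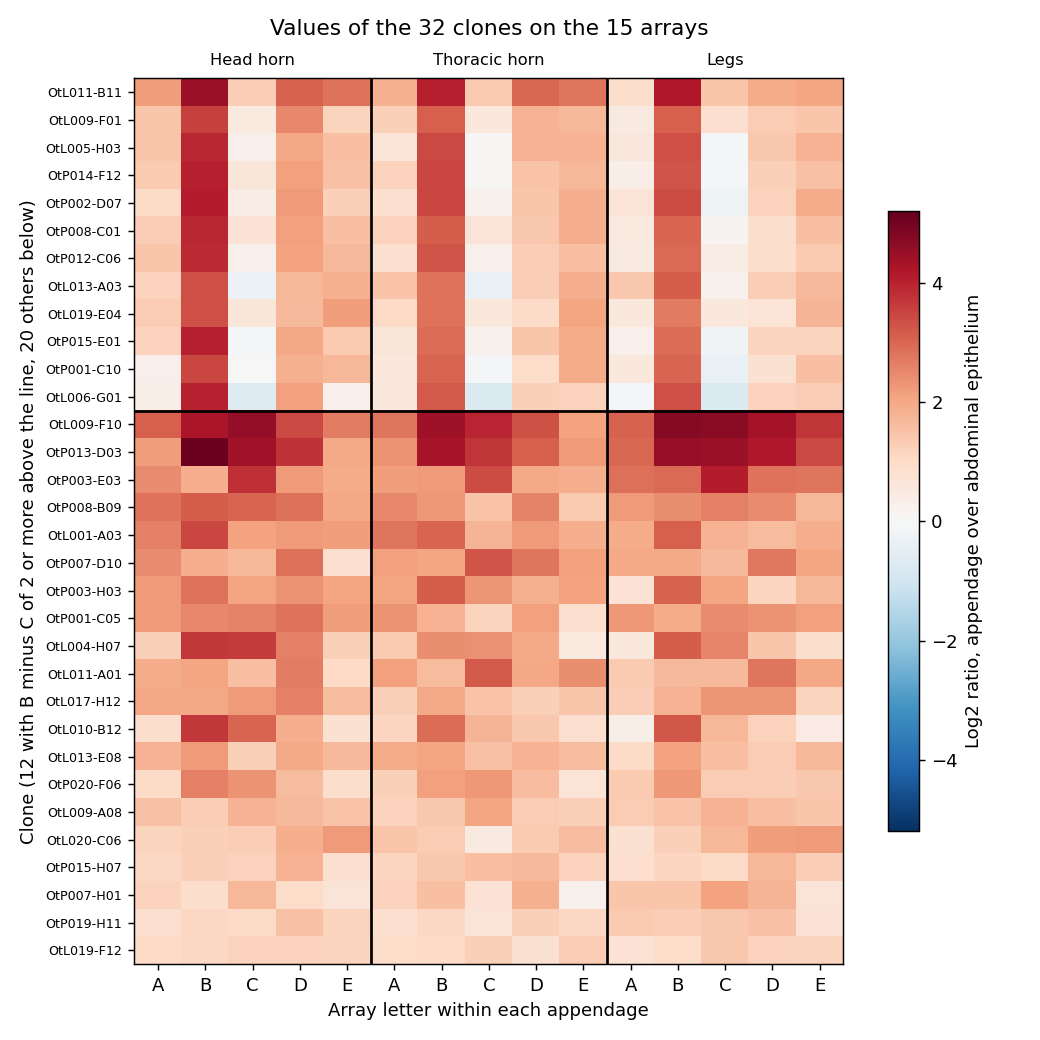
Log2 ratio of the 32 clones (down the page) on the 15 arrays, ordered by appendage and letter, with red above 0 and blue below 0. The 12 clones above the line are dark on letter B and pale on letter C in head horn, thoracic horn and legs alike, while the 20 below the line show no common column.

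OtP014-F12 shows the pattern. It stood at 1.35, 4.06, 0.65, 2.13 and 1.5 in head horn on letters A to E. The values were 1.18, 3.47, 0.05, 1.48 and 1.71 in thoracic horn, and 0.35, 3.26, -0.08, 1.23 and 1.54 in legs. Letter B was highest and letter C lowest in each appendage, and the appendages overlapped almost fully. The means were 1.94 ± 1.30 in the head horn, 1.58 ± 1.24 in the thoracic horn and 1.26 ± 1.29 in the legs (SD, n = 5 each).

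OtL006-G01 had the widest spread of letters. In head horn it stood at 0.35, 4.02, -0.69, 2.15 and 0.27 on letters A to E. Thoracic horn gave 0.57, 3.18, -0.76, 1.22 and 1.21, and legs gave -0.08, 3.33, -0.77, 1.20 and 1.30. The clone was thus below 0 on letter C in all 3 appendages and above 3 on letter B in all 3. Its letter means differed by 4.25 between B and C, whereas its appendage means lay within 0.32.

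Across the 12 clones, every letter B value lay between 2.71 and 4.48 and every letter C value between -0.77 and 1.44. Letter B was the highest of the 5 letters in all 3 appendages in 12 of 12 clones, and letter C the lowest in all 3 in 10 of 12. On the remaining letters the medians were 0.94 for A, 1.53 for D and 1.68 for E. All 13 of the 480 single values at 0 or below belonged to 7 of these clones, 12 of them on letter C and 1 on letter A. The 20 other clones were above 0 on every array.

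**Figure D3:**
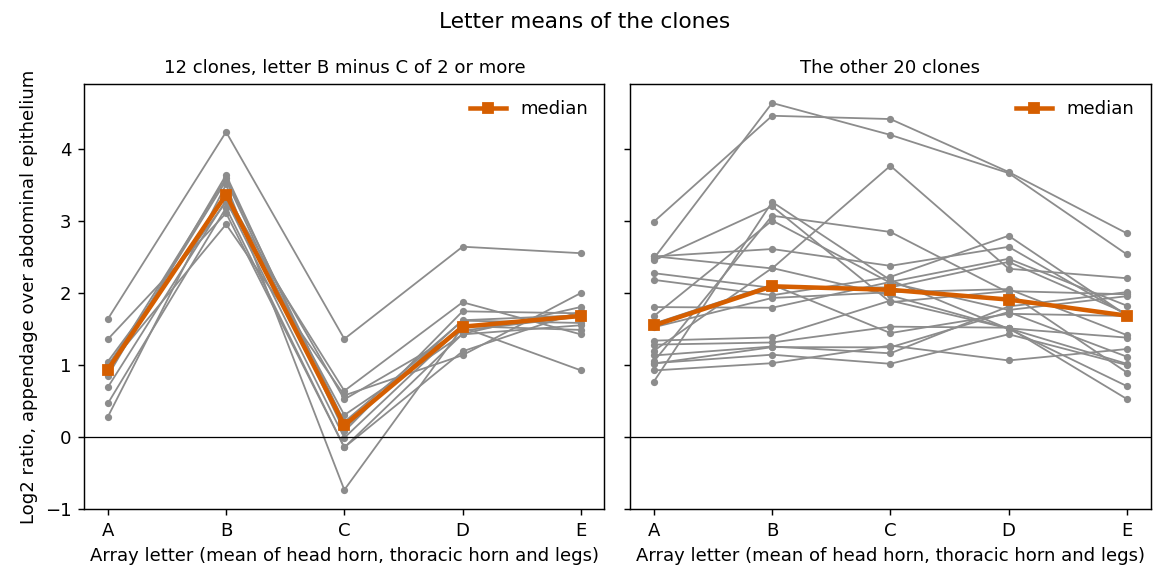
Mean over the 3 appendages of each clone on letters A to E (grey) with the median (orange), for the 12 clones with letter B minus C of 2 or more (left) and the other 20 (right), as log2 ratio against abdominal epithelium. Letters have no order, and lines only join the points of a clone. The 12 clones run nearly in parallel, with medians of 3.37 on B and 0.16 on C, whereas the medians of the other 20 lie between 1.55 and 2.09.

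The 12 clones ran closely alike. Correlations of their 15 values ran from 0.86 to 0.99 over 66 pairs, with a median of 0.95. In the 190 pairs of the other 20 clones they ran from -0.53 to 0.93, with a median of 0.16. The 3 most alike pairs were OtP014-F12 with OtP008-C01 (0.987), OtL005-H03 with OtP002-D07 (0.985) and OtL005-H03 with OtP014-F12 (0.982), and the members of each pair differed by a root mean square of 0.21 to 0.23. The clones share the same arrays, dyes and abdominal samples, and the grouping was made on letters B and C, so these correlations are a description. The 12 clones lay on 12 different plates, 6 of them OtL and 6 OtP. Outside the group, 1 of 3170 clones correlated at 0.9 or more with its mean profile. That clone, OtP017-F05 (0.964), was also raised in all 3 appendages, at 2.41 in the head horn, 1.70 in the thoracic horn and 1.32 in the legs. It had missed the rule through its range of 1.09. Just under 0.9 the profile was not limited to raised clones. OtL006-H03 (0.888) stood at -3.36, -2.92 and -3.37 in the same order, and OtL018-B05 (0.885) at -0.23, -0.37 and -0.32. OtL011-G11 (0.885) was raised, at 2.65, 2.57 and 1.81.

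Other letter patterns were seen among the remaining 20 clones. OtL004-H07 was high on letters B and C, at 3.66 and 3.65 in the head horn, 2.40 and 2.36 in the thoracic horn and 3.16 and 2.53 in the legs, against 0.53 to 1.35 on letters A and E. Letters B and C also gave the highest 2 letter means in OtL009-F10, OtP013-D03, OtP003-H03, OtL010-B12 and OtP020-F06. OtP003-E03 and OtL009-A08 were highest on letter C in all 3 appendages. Letter B was highest in all 3 appendages in 6 of the 20, and in 134 of all 3182 clones.

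The letters were then tested with limma, with letters A to E as terms beside the appendages, over the 3182 clones with 15 values. This test was added after the values had been seen. The rule did not compare letters, but it gave each B or D array more weight than each A, C or E array. The calls are therefore not independent of the choice. A letter stands for 3 arrays, 1 per appendage, and the pupae, the handling and the abdominal samples of these arrays cannot be told apart in it. The letter term was called in 23 of the 32 clones (71.9%, adjusted p under 0.05), where 52.3% of all clones were called. The same term was called in 19 of the 32 without letter B (39.9% of all clones) and in 23 without letter C (42.4%). Nothing is read from the call in the 12 clones with high letter B, which were grouped on letters. In the other 20 it was made in 11 (55%), near the 52.3% of all clones. Among the clones raised over a wider range it was called in 51 of 53, and among those lowered evenly in 62 of 101. The smallest adjusted p among the 32 was that of OtL005-H03, 1.26e-05 by limma, whose letter means ran from 0.07 on C to 3.56 on B. Clones such as OtL019-F12 (adjusted p = 0.219, limma), OtP019-H11 (0.234) and OtL011-A01 (0.482) missed the threshold, with letter means spanning 0.35, 0.43 and 0.68.

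Restricted to letters of the same dye layout, that is A, C and E among themselves and B against D, the letter term was called in 21 of the 32 clones (65.6%) and in 28.2% of all clones. The 21 include all 12 clones grouped for high letter B, from which nothing is read. Among the other 20 it was called in 9 (45%).

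Letters took up most of the variation within a clone. Between letters lay a median of 77.8% of the sum of squares of the 15 values in the 32 clones, against 49.1% in all 3182. The median was 91.2% in the 12 clones grouped for high letter B and 58.0% in the other 20. Between appendages lay 8.26% in the 32 clones and 20.6% in all. The range limit held this share down, which raises the letter share, because the shares of a clone are parts of the same total. OtL013-A03 was the extreme, with 96.6% between letters and 0.378% between appendages. Its head horn values were 1.21, 3.36, -0.31, 1.74 and 1.83 on letters A to E, and its leg values 1.40, 3.15, 0.24, 1.28 and 1.68. At the other end OtP001-C05 had 23.2% between letters and 44.8% between appendages. Within an appendage the 5 letters spanned a median of 1.73 in the 32 clones and 0.83 in all 3182. The 3 appendages of a letter spanned a median of 0.65 in the 32 clones and 0.51 in all. A span over 5 values tends to exceed a span over 3, and the rule limited the range of the appendage means.

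**Figure D4:**
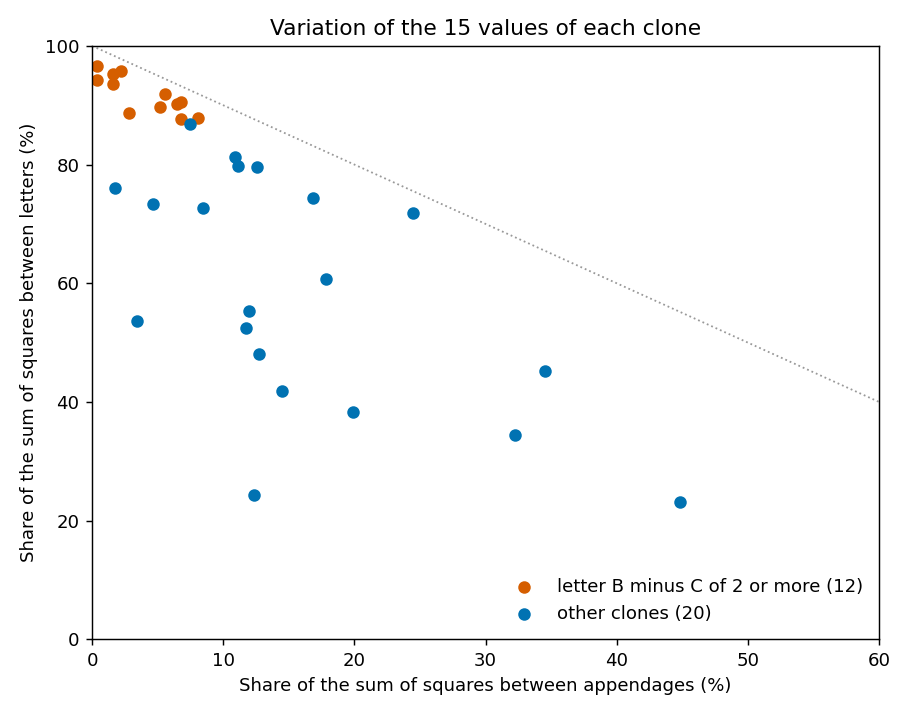
Share of the sum of squares of the 15 values between letters (vertical axis, %) against the share between appendages (horizontal axis, %) for each of the 32 clones; the dotted line marks where both add up to 100%. The 12 clones with letter B minus C of 2 or more lie at 87.8% or more between letters, and the other 20 spread from 23.2% to 86.8%.

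The dye layout was a further difference that the rule averaged over. The layout term, letters B and D minus letters A, C and E, was positive in 29 of the 32 clones, with a median of 0.60. Over all 3182 clones with 15 values it was positive in 1693, with a median of 0.03. It had a median of 1.56 in the 12 clones grouped for high letter B and of 0.35 in the other 20 (positive in 17). In the 53 clones raised over a wider range it was positive in 45, with a median of 0.75, and in the 101 clones lowered evenly it was positive in 33, with a median of -0.24. In each appendage the B and D mean rests on 2 arrays and the A, C and E mean on 3, yet the rule weighed them equally. The layout term was thus not independent of the choice. In the 32 clones it was called in 9 clones (28.1%, limma, adjusted p under 0.05), all positive, where 22.6% of all clones were called. All 9 belong to the 12 grouped for high letter B, which is itself part of this term. With the letter as a random replicate block, it was called in 2 of the 32 (5.32% of all clones). These were OtL006-G01 at 2.36 ± 0.58 (SE, adjusted p = 0.0316, limma) and OtL009-F01 at 1.53 ± 0.40 (SE, adjusted p = 0.0462, limma). That fit gives arrays of the same letter 1 correlation, 0.392, over all clones, and keeps arrays as the units. In these 2 clones 94.6% and 91.2% of the variation beside that between appendages lay between letters, so their p-values may be too small. A test on the 5 letter means was not run. Leaving out 1 letter also moved the count, to 2 without A (15.9% of all clones), 1 without B (13%) and 15 without D (12.2%). Pupae of letters B and D cannot be told apart from the dye in these arrays.

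OtL006-G01 carried the highest layout term, at 2.36 ± 0.51 (SE, adjusted p = 0.00633, limma, no block), with means of 2.52 on B and D and 0.16 on A, C and E. OtL005-H03 followed at 1.76 ± 0.45 (SE, adjusted p = 0.0157, limma) and OtP002-D07 at 1.75 ± 0.48 (SE, adjusted p = 0.0217, limma). Without letter B the term was 1.37 for OtL006-G01, 0.85 for OtL005-H03 and 0.74 for OtP002-D07, and none of the 3 passed the threshold. OtL005-H03 also lost its call without letter A (adjusted p = 0.0581, limma) and without letter C (0.0654), as did OtP002-D07 (0.0785 without A and 0.0898 without C). The lowest layout terms were those of OtP003-E03 (-0.49 ± 0.31, SE), OtL019-F12 (-0.09 ± 0.12) and OtL009-A08 (-0.09 ± 0.15), and none was called. A layout term that differed between appendages was called in 0 of the 32 clones for each pair (limma). Of all 3725 clones tested it was called in 0.0268% between head horn and legs, in 0% between thoracic horn and legs and in 0% between the horns. At an unadjusted p under 0.05 the 32 clones gave 0, 1 and 1 in the same order.

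**Figure D5:**
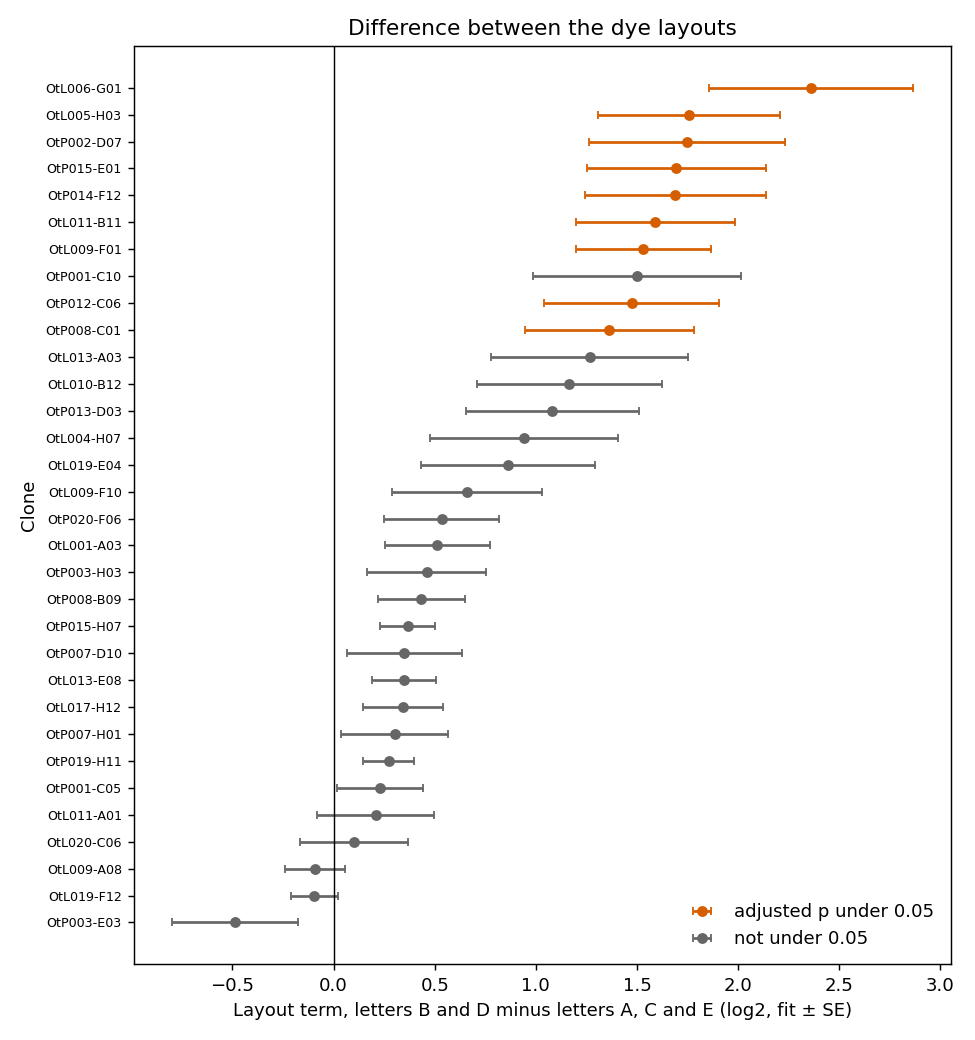
Layout term of each of the 32 clones, letters B and D (appendage in Cy5) minus letters A, C and E (appendage in Cy3), as fit ± SE on the log2 scale from limma without a replicate block. Orange marks the 9 clones with an adjusted p under 0.05, and 29 of the 32 points lie above 0.

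Taken by layout, 30 of the 32 clones had all 3 appendage means at 1 or more on letters B and D, and 18 had them on letters A, C and E. In 17 clones this held on both layouts, and in 9 the range was also under 0.8 on both. Over all 3182 clones, 121 reached the level on B and D, 71 on A, C and E and 55 on both. By letter, 94 of the 96 values of the 32 clones were at 1 or more on B, 88 on D, 81 on E, 64 on A and 58 on C. Over all clones such values made up 7.40% on B, 9.27% on D, 5.70% on E, 6.36% on A and 8.22% on C. Among the clones raised over a wider range, 154 of 159 values were at 1 or more on C. Both sets of raised clones were chosen on these values, and each B or D array weighed more in the choice than each A, C or E array. The counts by letter are therefore a description.

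Arrays that took no part in a choice were read by applying the rule to 4 letters and looking at the fifth. Without letter B the rule chose 18 clones, 16 of them among the 32, and 15 of the 18 (83.3%) were at 1 or more in all 3 appendages on letter B, against 4.09% of all clones. Without letter A it chose 35 clones, of which 9 (25.7%) reached 1 in all 3 appendages on A, against 1.41% of all. The shares were 50.0% on C against 3.61% of all clones, 62.7% on D against 3.46% and 66.7% on E against 1.92%. Elevation in all 3 appendages thus recurred on arrays left out of the choice, though not in every clone. All 3 values were above 0 on the letter left out in 78.1% (C) to 96.7% (E) of the clones chosen.

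Evenness on the letter left out is given as counts only. The 3 appendages lay within 0.8 of each other in 60% of the clones chosen without A (70.6% of all clones), 83.3% without B (75.6%), 62.5% without C (68.4%), 31.4% without D (74.2%) and 66.7% without E (69.8%). The limit of 0.8 had been set for means, whereas these are single arrays, and all clones, with ratios near 0 and smaller SDs, are no like comparison. Of the 12 clones with high letter B, 3 met the rule without that letter, as their choice makes likely.

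The identifiers read as plate and well, and by them the 32 clones came from 22 of the 40 plates, at most 3 from 1 plate, with no pair in neighbouring wells. There were 16 OtL and 16 OtP clones (50.0% OtL), against 53.8% OtL among all 3182 clones. The 53 clones raised over a wider range had 45 OtL clones (84.9%), and the 101 lowered evenly had 59 (58.4%). What the prefixes stand for is not stated in the sources used here.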

How the data were processed

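For each clone and array the deposited values were taken as log2 ratios that the authors had normalized, with limma per the submitters' processing notes. Background correction, normalization method, log base and the filter behind 1799 empty cells are not stated in the sources at hand, and signal strength is unknown. The 3777 clones measured on 3 or more arrays per appendage, with both dye layouts, were fitted with limma 3.58.1 in R 4.3.3 (lmFit, eBayes), with Benjamini-Hochberg adjustment within each comparison. Letter terms were tested on the 3182 complete clones. Fits were tested before use on simulated data whose noise was independent between arrays. That cannot show how the calls behave where arrays of the same letter vary together, as they do here. Figures used matplotlib 3.10.9.

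Deviations of same-letter arrays of different appendages, taken within appendage and dye layout, correlated at 0.34 to 0.48 over clones in all 15 pairs, so the letters pair the arrays by their values. Shared animals are stated only for the 2 samples of an array. P-values measure the spread between arrays.

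The 32 clones, the lists and the tests were chosen with earlier results of these data known. Named clones are the 10 highest mean ratios, the 5 smallest ranges and 3 on each side of each limit. They include the 3 highest and lowest layout terms, the 3 smallest and largest SDs and the 3 most alike pairs. OtP017-F05, OtL006-H03, OtL018-B05 and clones listed in counts were named after their values were seen. Alternatives covered letters left out, centring, averaging, layouts alone, signs, completeness, limits, the layout term and replicate blocks.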

Additional observations from a re-analysis of the deposited data

Results flagged for a closer look

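In groups of 5 arrays, a single array stood beyond Dixon's limit in 6 of 72 tests on the named clones and on their median per array, where chance flags about 1 in 20. OtP003-E03 stood at 3.40 on letter C of thoracic horn, against 1.90 to 2.21 on the other arrays, and at 4.10 on letter C of legs, against 2.78 to 2.93. OtL009-A08 was highest on letter C of thoracic horn, at 2.06, with the others between 1.18 and 1.39. Letter B of legs stood out in OtL001-A03 (3.10, others 1.66 to 1.95) and in OtP020-F06 (2.26, others 1.28 to 1.42). OtP008-B09 was lowest on letter E of head horn, at 1.99, with the others between 2.83 and 3.16.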

How the results depend on the processing

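The number of clones met by the rule depended on the letters and limits. It ran from 18 (without B) to 51 (without D) on leaving out 1 letter, with 16 and 29 of the 32 among them. It was 20 on letters A, C and E alone (12 shared), 20 without letters B and C, chosen after seeing the data (16 shared), 4 with B and D turned, 101 with all values turned, 93 with all means at 0.58 or more, and 17 with a range under 0.5. Called layout terms were 9 (22.6% of all clones), 2 with the random replicate block (5.32%), and on leaving out a letter ran from 1 (without B, 13%) to 15 (without D, 12.2%), with 2 without A (15.9%). Calls against abdomen on letters A, C and E alone were 20 in thoracic horn (20.2% of all clones) and 20 in legs (28.4%), and on B and D alone 21 (15.4%) and 21 (22.8%). Between head horn and legs, calls were 0 or 1 without a letter (1 without C, 2.76% of all clones). They were 9 with the fixed replicate block (21.0%). Between thoracic horn and legs, calls were 0 or 1 without a letter (1 without C, 4.65%). They were 1 with the random block (25.0%) and 3 with the fixed block (25.5%). The layout term of OtL009-A08 ran from -0.192 (without A) to 0.0868 (without C, a change of sign). Clones with all 3 intervals inside 0.8 were 5 without a block, 6 with the random and 10 with the fixed replicate block, both added after seeing the data. The replicate blocks moved no other count by over 1.5 times, and all other counts stayed within 1.5 times. The cause of these changes was not tested. Mean ratios of named clones kept their sign; without B, OtL006-G01 fell to 0.839 (1.34 with all letters) and OtP001-C10 to 0.938 (1.44). The number of arrays limits the precision.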
